A study of Mus musculus with 9 samples.

Results

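The 10 genes described here are expressed by the epithelium of the ducts that drain the testis: Crisp1, Cdh16, Emx2, Pax2, Pax8, Epcam, Krt7, Krt8, Krt18 and Krt19. They were taken by symbol from the 56691 genes of a count table of mouse testis mRNA on postnatal day 7, as a gauge of how much rete, efferent duct and epididymis tissue came along with each dissected testis. All 10 were found and all 10 had enough counts to be tested, among 17251 tested genes. The 9 libraries form 3 groups of 3: wild type (WT), libraries labelled Gm1142KO (Gm1142-/-) and libraries labelled DKO (Gm1142-/- and Gm4779-/-). The labels name no strain, allele design, litter, sex or treatment. They do not say that replicates came from separate animals. The p-values therefore reflect how far these samples vary, and that variation may be technical.

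The rete testis collects fluid from the seminiferous cords, and efferent ducts carry it to the epididymis, which grows out of the embryonic Wolffian duct. Pax2, Pax8 and Emx2 encode transcription factors that the Wolffian duct and the tubes derived from it need to form. Cdh16 encodes a cadherin first known from kidney tubules, Epcam a surface adhesion protein of epithelia that spermatogonia also carry, and Crisp1 a cysteine-rich protein that the epididymis secretes and that coats sperm. Krt7 and Krt8 are type II and Krt18 and Krt19 type I keratins, which pair to form the filaments of simple, single-layered epithelia and of the mesothelium that covers the testis. In bulk RNA, fewer duct cells and less RNA per duct cell cannot be told apart.

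Total counts ran from 4370124 to 8359594 per library, with replicate 2 of the DKO the deepest. A floor of 3 counts corresponds to 0.338 to 0.767 CPM (counts scaled to a common library size) in a library, and every member stood above it in every library. Gm1142 (listed as 8030474K03Rik) had 41 to 56 counts in WT, 46 to 65 in the libraries labelled Gm1142KO and 0 in each DKO library. Gm4779 had 42 to 53, 59 to 88 and 0 counts. The Gm1142 count therefore does not separate the libraries labelled Gm1142KO from WT, so they are called Gm1142KO-labelled below. These 3 libraries stood apart on the first principal component (37.2% of the variance), at 43.7 to 67.5 against -34.0 to -21.6 in the other 6, and mitochondrial genes took 32.5% to 38.9% of their counts against 27.1% to 32.9%. Testis markers were abundant throughout: summed levels were 496 to 1059 CPM for 20 spermatogonial genes and 2183 to 2959 CPM for 22 Sertoli cell genes.

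RefSeq promoter windows were matched for 8 of the 10 members, and 3 are printed because they hold no annotated exon and differ in the short motifs they carry. Each is the 250 bases before the transcription start in GRCm38.p6, 5′ to 3′ on the gene's strand, with motif matches in capitals. The Crisp1 window is chr17:40319208-40319457 (minus strand), that of Pax8 chr2:24475600-24475849 (minus strand) and that of Epcam chr17:87635729-87635978 (plus strand).
Crisp1: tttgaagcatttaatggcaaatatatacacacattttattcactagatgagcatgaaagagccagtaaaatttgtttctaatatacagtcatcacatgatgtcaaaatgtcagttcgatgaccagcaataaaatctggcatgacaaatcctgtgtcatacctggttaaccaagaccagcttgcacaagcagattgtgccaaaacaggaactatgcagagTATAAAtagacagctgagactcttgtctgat
Pax8: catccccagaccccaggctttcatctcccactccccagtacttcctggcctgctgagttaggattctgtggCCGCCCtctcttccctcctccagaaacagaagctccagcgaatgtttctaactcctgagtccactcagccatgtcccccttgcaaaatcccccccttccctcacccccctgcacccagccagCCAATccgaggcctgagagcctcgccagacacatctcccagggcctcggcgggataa
Epcam: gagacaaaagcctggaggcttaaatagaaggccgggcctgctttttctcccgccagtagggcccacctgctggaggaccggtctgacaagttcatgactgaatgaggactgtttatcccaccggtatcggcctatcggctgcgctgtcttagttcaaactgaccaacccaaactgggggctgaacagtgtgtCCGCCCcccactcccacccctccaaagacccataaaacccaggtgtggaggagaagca
Both strands were searched for TATAAA (the TATA box), for CCAAT and for the GC box GGGCGG. In Crisp1 the capitals mark TATAAA at positions -31 to -26, a motif that 12.4% of 32851 promoter windows of this length hold, and Crisp1 was the only one of the 8 members with a match. Pax8 carries CCAAT at -57 to -53 (in 33.9% of windows) and a reverse-strand match to GGGCGG at -179 to -174 (in 32.7%). The Epcam window has a reverse-strand match to GGGCGG at -58 to -53. No 2 of these matches overlap. Such matches describe the letters only, and the counts say nothing on binding.

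In WT testes the members spanned a wide range of levels, compared here per kilobase of exon. Exon length was merged over all annotated transcripts, with 7049 bases for Krt7 and 1437 for Krt18, and the order depends on it. In CPM, mean WT Krt7 (18.2) stood above Krt8 (13.5), Krt18 (10.8) and Krt19 (8.09). Crisp1 was highest at 23.3 ± 4.39 CPM per kilobase (SD, n = 3), followed by Epcam at 13.8 ± 2.56. Krt18 (7.52 ± 2.27), Krt8 (6.88 ± 2.34), Cdh16 (6.26 ± 1.23), Krt19 (4.36 ± 1.96), Emx2 (2.69 ± 0.83) and Krt7 (2.58 ± 0.24) formed a middle block in which each gene's library range overlapped that of the next. Pax8 (1.52 ± 0.20) and Pax2 (1.23 ± 0.14) were lowest, and Crisp1 and Epcam, Epcam and Krt18, Krt7 and Pax8, and Pax8 and Pax2 did not overlap. Crisp1 was thus the most abundant member per length.

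**Figure D1:**
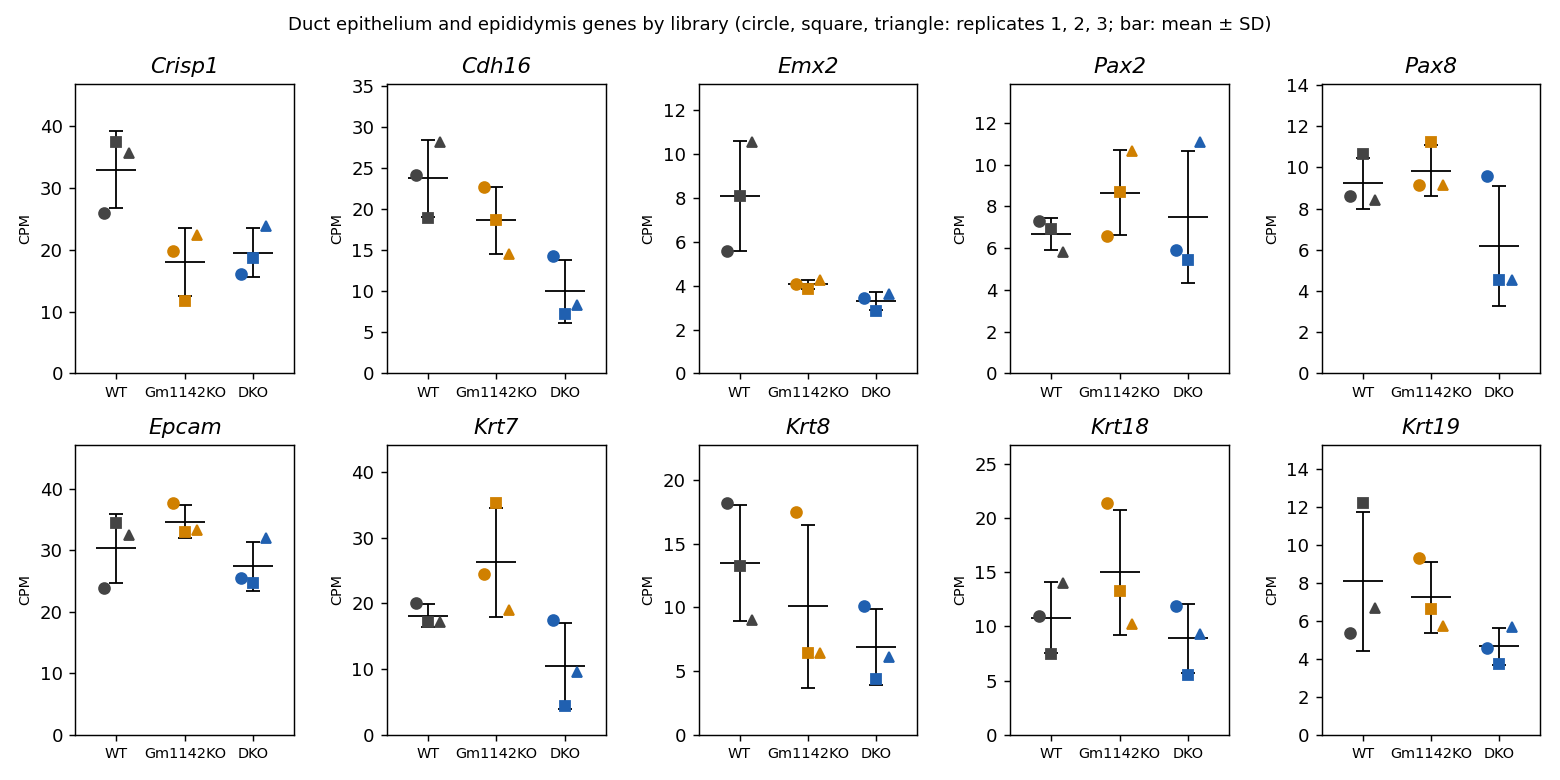
Level of each member in CPM (vertical axis, linear, from 0) in the 9 libraries, grouped as WT, Gm1142KO-labelled and DKO; points are libraries, and the mean and SD of 3 libraries are marked. Crisp1 and Emx2 lie lower in every knockout library than in any WT library, Cdh16 does so in the DKO, and Krt7 spreads from 4.40 to 17.4 CPM within the DKO.

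Crisp1 was lower in both knockout groups. Its level was 25.8, 37.5 and 35.5 CPM in WT replicates 1 to 3, 19.8, 11.8 and 22.4 in the Gm1142KO-labelled libraries and 16.1, 18.7 and 23.8 in the DKO. All 6 knockout libraries lay below all 3 WT libraries, and the knockout groups overlapped each other. Against WT, Crisp1 fell in the Gm1142KO-labelled libraries by 0.86 as a log2 difference (SE 0.24, adjusted p = 0.014 by edgeR's quasi-likelihood test with Benjamini-Hochberg adjustment over all tested genes). It was the 1 member called in this comparison, in which edgeR called 18.5% of all tested genes, 8.38% as lower and 10.2% as higher. The call was lost without WT replicate 2 (adjusted p = 0.0715), WT replicate 3 (0.056) or Gm1142KO-labelled replicate 2 (0.0621). In the DKO the log2 difference from WT was -0.76 (SE 0.23, 95% interval -1.24 to -0.28), with an edgeR adjusted p of 0.302, and between the knockout groups it was 0.10 (interval -0.40 to 0.60).

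Most of 15 other secretory genes of the epididymis gave few reads. The 15 were picked from a list of 45 duct and epididymis genes. Lcn2 and Wfdc2 of that list, with 406 and 179 counts in total, were not among them. Of the 15, 4 (Lcn5, Lcn9, Lcn10 and Crisp4) had 0 counts in all 9 libraries, which allows up to 0.0636 CPM over the summed depth. Another 8 had 1 to 30 counts in total, among them Lcn8 with 23, Adam7 with 22 and Gpx5 with 2. The remaining 3, Defb2, Defb42 and Cst8, had 278, 464 and 1684 counts in total. Crisp3 and Crisp2, relatives of Crisp1, had 24 and 16 counts, whereas Crisp1 itself had 46 to 190 counts in each library. The relatives were chosen after their values were seen.

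Cdh16 was the member with the lowest p in the DKO against WT. It stood at 24.1, 18.9 and 28.2 CPM in WT, 22.7, 18.7 and 14.5 in the Gm1142KO-labelled libraries and 14.4, 7.22 and 8.38 in the DKO. Every DKO library was below every other library, whereas the Gm1142KO-labelled libraries overlapped WT. DKO replicate 1 and Gm1142KO-labelled replicate 3 lay within 1 count of each other (0.191 CPM in that DKO library). Cdh16 fell in the DKO relative to the Gm1142KO-labelled libraries by 0.92 in log2 (SE 0.27), with an edgeR adjusted p of 0.0221. That call was lost without Gm1142KO-labelled replicate 1 (0.0946), DKO replicate 2 (0.134), DKO replicate 3 (0.0596) or replicate 2 of both groups (0.146). Against WT the DKO difference was -1.26 (SE 0.27, interval -1.82 to -0.70), a larger size with an edgeR adjusted p of 0.0816. The unadjusted edgeR p was lower against WT (0.000128) than against the Gm1142KO-labelled libraries (0.00299). The adjusted values also depend on the other genes of each comparison. The difference from WT crossed the threshold under DESeq2 (adjusted p = 0.0163), with no filter (0.000693), with WT and DKO fitted alone (0.0432) and without DKO replicate 1 (0.0154). Its adjusted p ranged from 0.000693 to 0.399 over 14 alternatives.

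Emx2, a homeobox factor of the urogenital epithelium, followed the same order at a lower level. It had 5.55, 8.08 and 10.6 CPM in WT, 4.08, 3.84 and 4.26 in the Gm1142KO-labelled libraries and 3.44, 2.82 and 3.62 in the DKO. The 3 groups did not overlap, but the knockout groups were close. DKO replicate 3 (16 counts) and Gm1142KO-labelled replicate 2 (15 counts) lay within 1 count of each other (0.226 CPM in that DKO library). Between the knockout groups the log2 difference was -0.32 (interval -1.14 to 0.51, edgeR adjusted p = 0.627). The log2 difference from WT was -0.98 (SE 0.38, edgeR adjusted p = 0.0766) in the Gm1142KO-labelled libraries and -1.30 (SE 0.38, 0.265) in the DKO, so neither passed the test. The antisense gene Emx2os shares 264 exonic bases with Emx2, and whether counting used strand is not given in the sources used here. Emx2os itself had 18, 30 and 25 counts in WT, 14, 21 and 8 in the Gm1142KO-labelled libraries and 21, 25 and 25 in the DKO, with overlapping groups.

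The paired box factors did not share that order. Pax2 was at 7.27, 6.90 and 5.81 CPM in WT, 6.60, 8.69 and 10.7 in the Gm1142KO-labelled libraries and 5.93, 5.41 and 11.1 in the DKO. Pax8 was at 8.61, 10.6 and 8.40, then 9.13, 11.2 and 9.16, then 9.57, 4.51 and 4.53 CPM. Neither gene separated any pair of groups. For Pax2 the log2 difference from WT was 0.37 (interval -0.34 to 1.08) in the Gm1142KO-labelled libraries and 0.14 (-0.57 to 0.85) in the DKO. For Pax8 the same differences were 0.09 (-0.58 to 0.76) and -0.58 (-1.27 to 0.10), and between the knockout groups it was called as lower in the DKO only without DKO replicate 1 (-1.13, edgeR adjusted p = 0.0307). The ratio of Pax2 to Pax8 counts ran from 0.648 to 0.844 in WT, and within the DKO it was 0.62, 1.20 and 2.45. DKO replicate 3 thus had the highest Pax2 of all 9 libraries beside the second lowest Pax8.

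Summed over Cdh16, Emx2, Pax2 and Pax8, the level was 47.7 ± 4.60 CPM in WT, 41.2 ± 2.27 in the Gm1142KO-labelled libraries and 27.0 ± 6.69 in the DKO (SD, n = 3 each). The DKO libraries gave 33.3, 20.0 and 27.6 CPM, all below the lowest of the other 6, which was 38.6. This sum was made as a description and was not tested. Cdh16 differed most in CPM, with means of 23.8 in WT and 9.98 in the DKO. The same means were 8.06 and 3.30 for Emx2, 9.22 and 6.20 for Pax8, and 6.66 and 7.48 for Pax2.

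Epcam stood between 23.9 and 37.7 CPM in all 9 libraries. Its level was 23.9, 34.5 and 32.5 CPM in WT, 37.7, 33.0 and 33.2 in the Gm1142KO-labelled libraries and 25.4, 24.7 and 31.9 in the DKO. The DKO lay below the Gm1142KO-labelled libraries without overlap, with a log2 difference of -0.35 (interval -0.73 to 0.04, edgeR adjusted p = 0.201). The 20 spermatogonial genes, whose cells also carry Epcam, stood at 496 to 644 CPM summed in the Gm1142KO-labelled libraries and 865 to 1059 in the DKO, against 586 to 683 in WT. Their part in the Epcam level was not tested.

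Krt7 had the largest difference of the keratins between the knockout groups. It was at 20.1, 17.1 and 17.2 CPM in WT, 24.5, 35.3 and 19.0 in the Gm1142KO-labelled libraries and 17.4, 4.40 and 9.51 in the DKO. Each DKO library was below each Gm1142KO-labelled library, and DKO replicate 1 lay inside the WT range while replicates 2 and 3 lay under it. Krt7 fell in the DKO relative to the Gm1142KO-labelled libraries by 1.36 in log2 (SE 0.34), with an edgeR adjusted p of 0.00769. It was called under 13 of 14 alternatives, the exception being the fit without replicate 2 of both knockout groups (-0.68, 0.133). Against WT its differences were 0.52 (interval -0.16 to 1.20) and -0.84 (-1.55 to -0.13), with edgeR adjusted p of 0.295 and 0.473.

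Krt8 and its usual partner Krt18 are neighbours on chromosome 15, 23697 bases apart with no annotated gene between them in GRCm38. Krt8 was at 18.2, 13.2 and 9.04 CPM in WT, 17.5, 6.39 and 6.39 in the Gm1142KO-labelled libraries and 10.1, 4.40 and 6.12 in the DKO. Krt18 was at 10.9, 7.49 and 14.0, then 21.4, 13.3 and 10.2, then 11.9, 5.53 and 9.29 CPM. All groups overlapped for both genes. Their count ratio, Krt8 over Krt18, was 1.67, 1.76 and 0.646 in WT, 0.818, 0.481 and 0.625 in the Gm1142KO-labelled libraries and 0.855, 0.796 and 0.659 in the DKO, so WT replicate 3 sat with the knockout libraries. In the DKO the log2 difference from WT was -0.996 (interval -1.81 to -0.18) for Krt8 and -0.30 (-1.004 to 0.40) for Krt18, with edgeR adjusted p of 0.465 and 0.848.

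Krt19, the smallest type I keratin, was at 5.36, 12.2 and 6.68 CPM in WT, 9.32, 6.65 and 5.75 in the Gm1142KO-labelled libraries and 4.59, 3.72 and 5.66 in the DKO. The DKO was below the Gm1142KO-labelled libraries without overlap and overlapped WT, with log2 differences of -0.66 (edgeR adjusted p = 0.235) and -0.82 (0.539). Replicate 3 of the DKO and replicate 3 of the Gm1142KO-labelled libraries lay within 1 count of each other (0.226 CPM in that DKO library). The 4 keratins summed to 50.5 ± 3.83 CPM in WT, 58.5 ± 15.9 in the Gm1142KO-labelled libraries and 30.9 ± 13.0 in the DKO. Of 46 other keratin genes in the table only Krt10 and Krt20 had enough counts to be tested and neither was called by edgeR, DESeq2 or limma-voom in any comparison or had an unadjusted p under 0.05, while 19 had 0 counts in all 9 libraries.

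**Figure D2:**
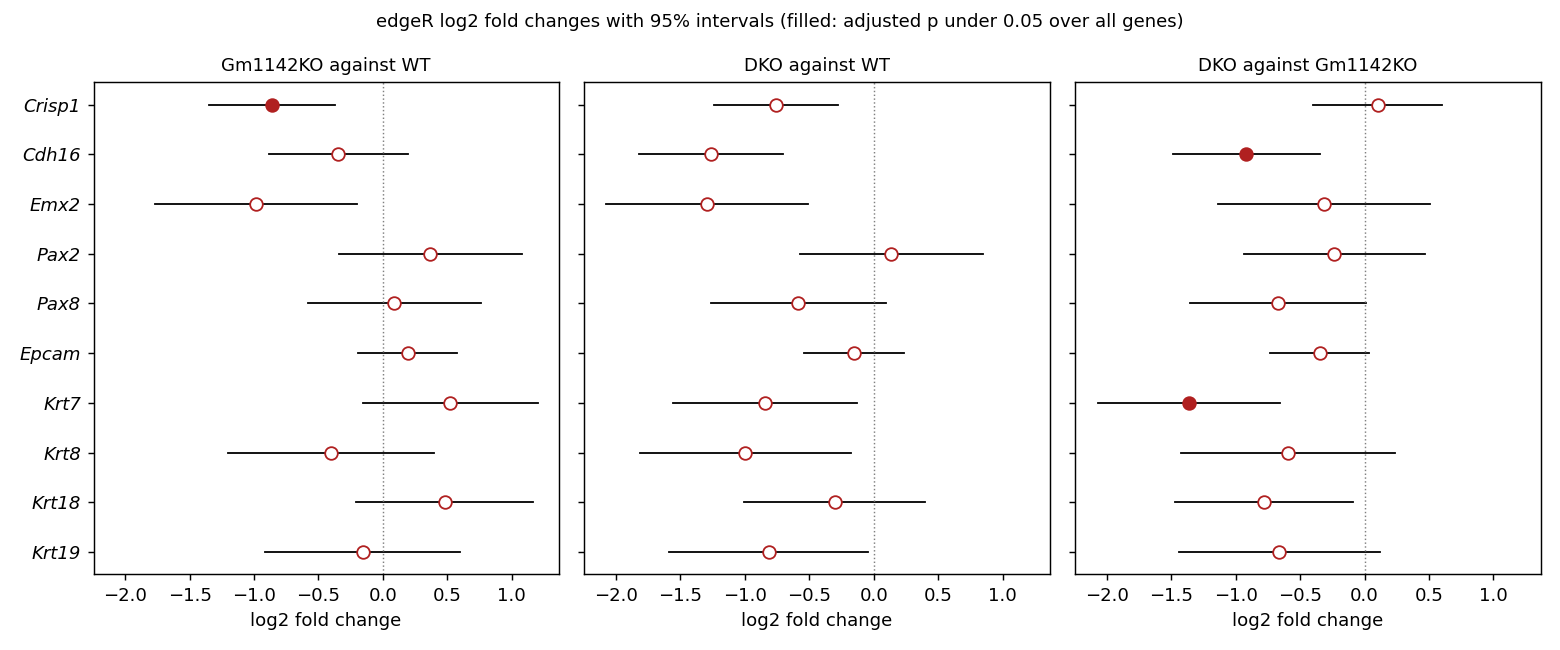
Log2 difference of each member (horizontal axis) in the 3 comparisons, with 95% intervals from edgeR; filled points passed an adjusted p of 0.05. Crisp1 is the 1 member called in the Gm1142KO-labelled libraries against WT, no member is called in the DKO against WT although 9 of 10 lie below 0, and Cdh16 and Krt7 are called between the knockout groups.

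Most members had negative differences in the DKO, and few passed the test. In the Gm1142KO-labelled libraries 5 of 10 members had a negative log2 difference from WT, beside 50.7% of all tested genes, and the medians were -0.03 and -0.01. Of the members, 2 (Crisp1 and Emx2) lay wholly below WT, as did 17.2% of all tested genes. In the DKO against WT 9 of 10 were negative, beside 47.7% of all genes, with medians of -0.79 and 0.02. No member was called there by edgeR, 6 had an unadjusted p under 0.05 (beside 8.95% of all tested genes), limma-voom called 0 and DESeq2 called 1, Cdh16. That comparison called 0.0927% of all genes in all, 0.0464% as higher and 0.0464% as lower. The 3 members wholly below WT, Crisp1, Cdh16 and Emx2, stand beside 7.57% of all genes.

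Between the knockout groups 9 of 10 members were lower in the DKO, beside 47.4% of all genes, with medians of -0.63 and 0.03. The 2 called members, Cdh16 and Krt7, compare with 19.1% of all genes called, 10.1% as lower and 9.07% as higher. The 5 members wholly below the Gm1142KO-labelled libraries (Cdh16, Emx2, Epcam, Krt7 and Krt19) compare with 17.1% of all genes. For Cdh16, Emx2 and Krt19 the gap between the nearest libraries was smaller than 1 count in the DKO library. How often this held among all genes was not examined. Both comparisons with WT use the same 3 WT libraries, and all pairs of comparisons share 1 group, so their values are not independent.

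The members differed between libraries of the DKO, and so did genes of 2 neighbouring cell types: ciliated cells, which line the efferent ducts, and the mesothelium, whose cells share Krt7, Krt8, Krt18 and Krt19. The 14 ciliated cell genes in the table summed to 48.4, 54.6 and 28.0 CPM in WT, 45.6, 65.7 and 39.6 in the Gm1142KO-labelled libraries and 57.0, 32.6 and 29.2 in the DKO. The highest library of a group was 1.95, 1.66 and 1.95 times its lowest, and the groups overlapped. Of these genes, 6 with a wider spread (Foxj1, Mcidas, Gmnc, Deup1, Cdc20b and Sntn) were also summed after their values were seen, at 17.6, 16.8 and 3.45 CPM in WT, 14.0, 33.0 and 7.67 in the Gm1142KO-labelled libraries and 18.4, 2.26 and 4.53 in the DKO.

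The 13 mesothelial genes other than Wt1, which Sertoli cells express as well, summed to 100.5, 98.0 and 118 CPM in WT, 204, 109 and 105 in the Gm1142KO-labelled libraries and 154, 80.9 and 106 in the DKO. Replicate 1 was the highest library in both knockout groups. Upk3b, a uroplakin of the mesothelium, was at 27.2, 22.9 and 41.1 CPM in WT, 83.1, 41.7 and 34.9 in the Gm1142KO-labelled libraries and 50.3, 8.35 and 27.4 in the DKO. Lrrn4, a membrane protein of the same cells, was at 6.13, 6.50 and 8.40, then 29.3, 12.3 and 11.7, then 15.9, 2.03 and 9.06 CPM. Both were picked after their values were seen, and replicate 1 was the highest library of both in each knockout group. Not all 13 genes did so. Prg4, also picked after its values were seen, was lowest in replicate 1 of each knockout group. It was at 5.63, 10.7 and 6.18 CPM in the Gm1142KO-labelled libraries and 3.06, 4.96 and 6.79 in the DKO.

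DKO replicate 1 lay above every WT library for the ciliated sum and for the mesothelial sum. Its level over the mean of the other 2 DKO libraries was 1.84 for the 14 ciliated genes and 1.65 for the 13 mesothelial genes. Of single mesothelial genes it was 2.82 for Upk3b and 2.86 for Lrrn4, but 0.521 for Prg4. Among members it was 2.50 for Krt7, 2.12 for Pax8, 1.93 for Krt8, 1.84 for Cdh16 and 1.60 for Krt18, but 1.07 for Emx2, 0.979 for Krt19, 0.899 for Epcam, 0.756 for Crisp1 and 0.718 for Pax2. For the 6 ciliated genes chosen after their values were seen it was 5.41.

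In DKO replicate 1, Krt7, Krt8, Krt18, Pax2, Pax8 and Epcam lay inside the WT range, and 4 members (Crisp1, Cdh16, Emx2 and Krt19) lay below all WT libraries, beside 26.9% of all tested genes. In DKO replicate 2, 9 members lay below all WT libraries, beside 28.3% of all tested genes, and in DKO replicate 3, 6 did, beside 29.0%. WT replicate 3 had the lowest sum of the 14 ciliated genes of all 9 libraries and the highest Cdh16 and Emx2. The part of ciliated cells and of mesothelium in the differences of the members was not tested.

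**Figure D3:**
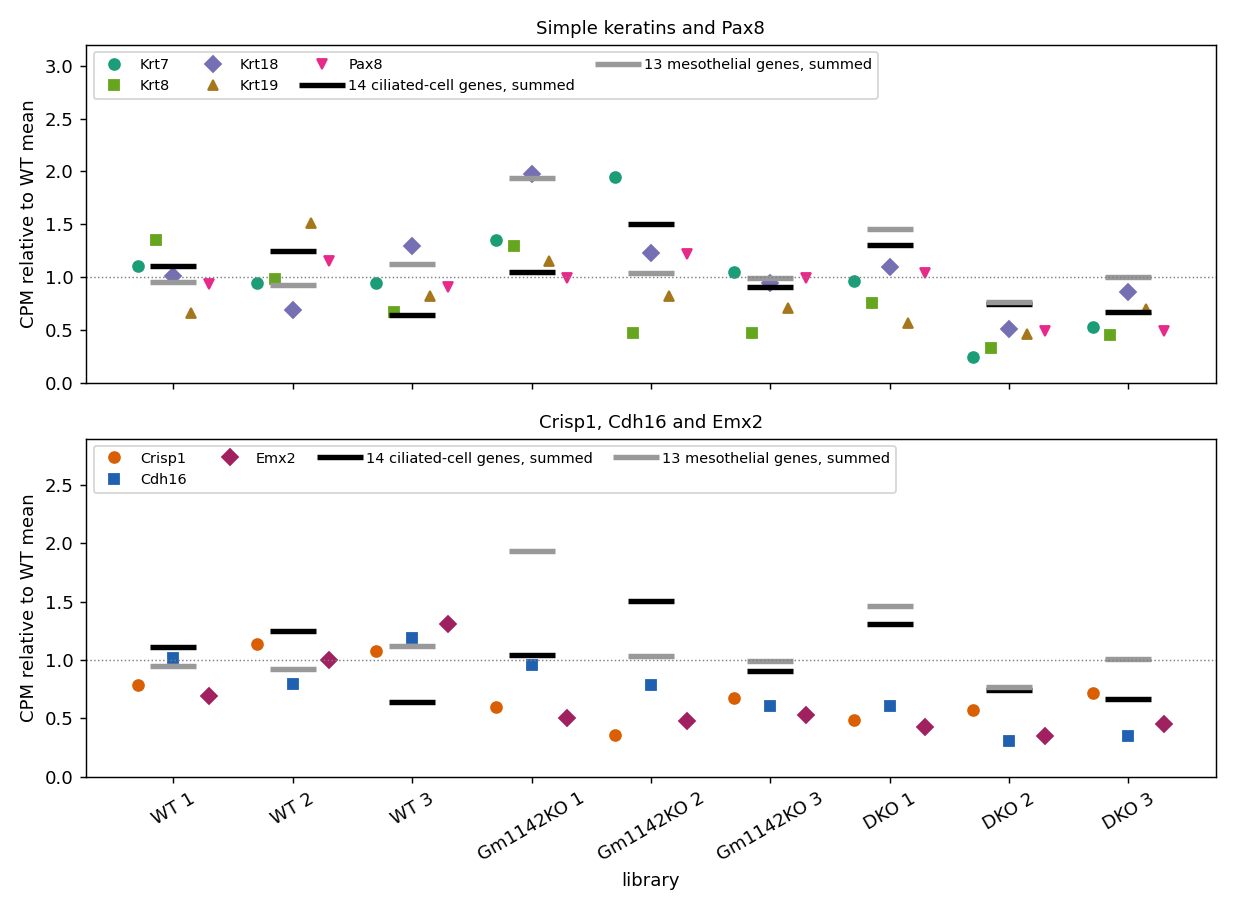
CPM relative to the WT mean (vertical axis, linear) in each of the 9 libraries; coloured symbols are members, black bars the sum of 14 ciliated cell genes and grey bars the sum of 13 mesothelial genes. In DKO replicate 1 both bars lie above 1. In the upper panel Krt7, Krt18 and Pax8 lie near 1 there, Krt8 at 0.752 and Krt19 at 0.568. Krt19 and the lower-panel genes Crisp1, Cdh16 and Emx2 lie below all WT libraries in DKO replicate 1.

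Other genes of the Wolffian duct and epididymis were called in both directions. This list is not confined to duct cells, since Ret is also on the list of spermatogonial genes. Which cells gave the calls was not tested. Of 45 listed, 23 could be tested, with median log2 differences of -0.14, -0.36 and 0.02 in the Gm1142KO-labelled libraries against WT, the DKO against WT and the DKO against the Gm1142KO-labelled libraries. Against WT, 1 fell and 1 rose in the Gm1142KO-labelled libraries: Hoxa10, a homeobox gene of the caudal duct (log2 difference -1.16, edgeR adjusted p = 0.0306), and Etv4, an ETS factor downstream of FGF and GDNF signalling (0.66, 0.0333). Hoxa10 was called under 9 of 14 alternatives and was lost without WT replicate 2 or 3 or Gm1142KO-labelled replicate 1 or 2 (adjusted p 0.0549 to 0.186). Etv4 was called under 6 of 14 and was lost without WT replicate 1 or 3 or any 1 Gm1142KO-labelled library (0.0539 to 0.142), and also under DESeq2 (0.0501) and with no filter (0.0843). These 2 of 23 stand beside 18.5% of all tested genes called. No gene of the list was called by edgeR in the DKO against WT, while DESeq2 called 1 and limma-voom 0. An unadjusted p under 0.05 was found for 5 of the 23, beside 8.95% of all tested genes. The lowest p there belonged to Lcn2, a secreted lipocalin, at 4.20 ± 1.998 against 11.0 ± 1.15 CPM (log2 difference -1.40, edgeR adjusted p = 0.119). Lcn2 passed with no filter (0.0181), under DESeq2 (0.0486) and without DKO replicate 1 (0.0231).

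Between the knockout groups 3 genes of that list fell in the DKO and 2 rose, 5 of 23 beside 19.1% of all tested genes. Fgfr2, an FGF receptor of epithelia, fell by 0.84 in log2 (edgeR adjusted p = 0.00096), Lcn2 by 1.57 (0.00206) and Etv4 by 1.01 (0.00235), and each was called under all 14 alternatives. Esr1, the estrogen receptor that efferent ducts and Leydig cells express, rose by 0.87 (0.0256), and Inhba, an activin subunit added after its values were seen, by 0.56 (0.0284). Esr1 was called under 9 of 14, with an adjusted p of 0.00993 to 0.232 over the 14. Among the losses were the fits without Gm1142KO-labelled replicate 2 or DKO replicate 1 or 2 (0.0932 to 0.117), and with the compared groups fitted alone (0.0514).

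Junction and identity genes of epithelia in general are in part shared with Sertoli and germ cells. Of 28 tested, 4 fell and 1 rose in the Gm1142KO-labelled libraries against WT, a share near the 18.5% of all tested genes. Cgn, a tight junction protein, went from 163 ± 10.9 to 103 ± 5.66 CPM (log2 difference -0.66, edgeR adjusted p = 0.000549), the desmosomal cadherin Dsc2 from 13.0 ± 4.05 to 5.31 ± 1.61 and the protease inhibitor Spint2 from 55.4 ± 5.75 to 38.3 ± 4.46. The splicing factor Esrp1 rose from 26.9 ± 2.22 to 45.9 ± 1.13 CPM. Jup, a junction plaque protein outside the naming rule that was added after its values were seen, was the other that fell (-0.83, edgeR adjusted p = 0.036). None of the 28 was called by edgeR, DESeq2 or limma-voom in the DKO against WT, where the median was -0.34. In that comparison 4 had an unadjusted p under 0.05, beside 8.95% of all tested genes. Between the knockout groups Cgn, Spint2 and Dsc2 were higher and Esrp1 lower in the DKO, 4 of 28 beside 19.1% of all tested genes. Against WT the call of Dsc2 was lost without WT replicate 1 (0.051) and that of Spint2 without WT replicate 2 or 3 or Gm1142KO-labelled replicate 1 (0.0589 to 0.0897). Between the knockout groups that of Dsc2 was lost without Gm1142KO-labelled replicate 2 or DKO replicate 3 (0.06 to 0.0713), and that of Esrp1 without replicate 1 or 3 of either group (0.0728 to 0.0852), with no filter (0.076) and with the compared groups fitted alone (0.0524).

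Markers of neighbouring cells were followed beside the members. Of 9 tested genes of ciliated cells none was called by edgeR, DESeq2 or limma-voom in any comparison, with medians of 0.39, -0.17 and -0.48. An unadjusted edgeR p under 0.05 was found for 1 (Foxj1 between the knockout groups, 0.0231, beside 32.2% of all tested genes there). The 14 mesothelial genes, Wt1 included, summed to 335 to 363 CPM in WT, 456 to 514 in the Gm1142KO-labelled libraries and 306 to 390 in the DKO. Wt1 alone was at 245 ± 8.28, 337 ± 24.0 and 239 ± 16.1 CPM. Of the 14, edgeR called 1 in the Gm1142KO-labelled libraries against WT (Wt1, higher, adjusted p = 0.00584) and 0 in the DKO against WT. Between the knockout groups edgeR called 3, DESeq2 1 and limma-voom 5. Those of edgeR were Wt1, lower in the DKO (0.0035), and Bnc1 (0.0413) and Aldh1a2 (0.0443), higher. The 1 of 14 and 3 of 14 stand beside 18.5% and 19.1% of all tested genes. Of 12 rete testis genes outside the members none was called by any of the 3 tools in the DKO against WT. There 2 had an unadjusted p under 0.05, beside 8.95% of all tested genes. In the Gm1142KO-labelled libraries 2 of the 12 fell against WT, and 4 were higher in the DKO than in those libraries. Sox9 and Espn, which Sertoli cells express as well, made up the 2 and were among the 4, with Ndrg4 and Cldn11. Cldn11 is also on the list of Sertoli cell genes. The 2 of 12 and 4 of 12 stand beside 18.5% and 19.1% of all tested genes. Every gene found on these 3 lists had a count in at least 1 library. Their part in the members' differences was not tested.

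**Figure D4:**
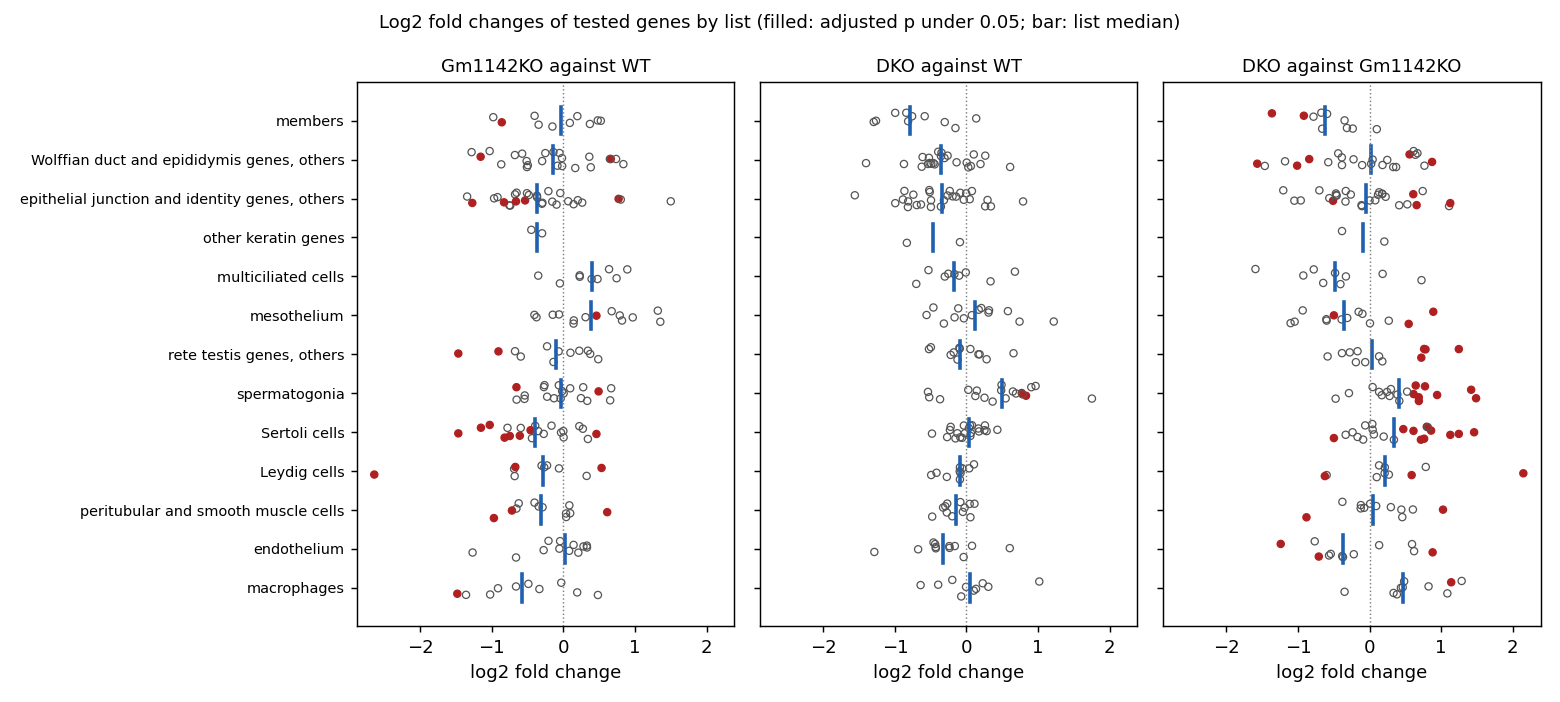
Log2 difference (horizontal axis) of each tested gene, by list (rows, the members included), in the 3 comparisons; filled points passed an adjusted p of 0.05 and the bar is the median of the list. The members' medians are -0.79 in the DKO against WT and -0.03 in the Gm1142KO-labelled libraries against WT.

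Genes were ranked by likeness to the mean library profile of Cdh16, Emx2, Pax2 and Pax8, whose own profiles differed. The measure was the root-mean-square difference in centred log2(CPM + 0.5) over the 9 libraries. Candidates were 11239 tested genes with a mean of at least 5 CPM, outside the gene lists and without a predicted-gene symbol. The closest were Nfatc4 (0.0958), Iqcg (0.105), Tubb2b (0.133), Atp8a2 (0.146), Ltbp3 (0.151) and Mmp23 (0.153). The SD of the profile itself over the libraries was 0.361. Nfatc4, the closest, had 31.4 to 37.0 CPM in WT, 27.4 to 28.1 in the Gm1142KO-labelled libraries and 15.5 to 24.5 in the DKO.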

How the data were processed

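The authors deposited 1 table of raw counts, with genes in rows and libraries in columns. Per the labels' protocols, mRNA was enriched with oligo(dT) beads. Per the submitters' processing notes, cutadapt, Bowtie2, STAR and featureCounts were used on mm39, and no versions are named. Strand use in counting, the annotation and the handling of multi-mapped reads are not given in the sources used here; they bear on overlapping genes (Emx2 and Emx2os).

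Members were matched by Ensembl identifier and symbol (52073 of 56691 genes had a symbol). The members and gene lists were chosen with earlier results of these data known, so their counts are read against all tested genes. Genes without a symbol held at most 0.510% of a library's counts. Counts were fitted with edgeR 4.0.16 in R 4.3.3: default filter by group (minimum count 10, total 15), TMM scaling (factors 0.856 to 1.07), 1 quasi-likelihood model of all 9 libraries with 6 residual degrees of freedom, and Benjamini-Hochberg adjustment over 17251 genes, called under 0.05. Levels are CPM on TMM-scaled sizes. Depth was 4370124 to 8359594 counts per library; floors of 3 counts cover counting error only. No 2 libraries differed by as little as sampling noise (lowest chi-square per degree of freedom 3.65).

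Named genes were the members, at most 4 called genes per list and comparison in order of p (3 uncalled where none was called), and the 6 genes closest in profile. The sum of 6 ciliated cell genes, Upk3b, Lrrn4, Prg4 and the relatives of members were chosen after their values were seen. Loci and exon lengths are from GENCODE M21 (GRCm38), promoters from RefSeq (GRCm38.p6), neither being the counting build. Alternatives were DESeq2 1.42.0 and its size factors, limma-voom (limma 3.58.1), no filter, a stricter filter (1 CPM in 3 libraries and 100 counts in total), the compared groups alone, the replicate block, each library left out and, added after seeing the data, replicate 2 of both knockout groups left out together and the same alternatives for most named list genes. The fit was tested on simulated data.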

Additional observations from a re-analysis of the deposited data

How the results depend on the processing

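With 3 libraries a group and few reads for most members (15 to 49 counts for Emx2), modest differences could not be resolved. Of the members' log2 differences under 14 alternatives each, 398 kept direction and side of the threshold, 9 reversed, 5 passed newly and 8 were lost; for named list genes 371 kept, 1 reversed, 3 passed newly and 31 were lost. The cause was not tested except where the alternative itself removes a library.

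Genes called in the Gm1142KO-labelled libraries against WT were 3196, and 2037 to 3015 with 1 library left out (lowest without WT replicate 1); members called were 1, and 0 to 1. In the DKO against WT 16 genes were called, 110 with no filter, 58 by DESeq2, 28 with the compared groups alone and 9 to 32 with 1 library left out (9 without WT replicate 1, 32 without DKO replicate 1); members called were 0, but 1 with no filter, by DESeq2 and with the groups alone, and 0 to 1 with 1 library left out. Between the knockout groups 3301 genes were called, 2128 to 3219 with 1 library left out (lowest without DKO replicate 2) and 2004 without replicate 2 of both groups; members called were 2, 1 to 3 and 0.

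Reversals were small. Pax8 in the Gm1142KO-labelled libraries against WT was 0.09, and -0.01 to 0.20 with 1 library left out (-0.014 without Gm1142KO-labelled replicate 2, -0.012 without replicate 2 of both groups); Krt19 was -0.15, and -0.39 to 0.27 (positive without WT replicate 2). Pax2 in the DKO against WT was 0.14, -0.00336 by limma-voom and -0.25 to 0.33 (negative without DKO replicate 3). Between the knockout groups Crisp1 was 0.10, -0.13 to 0.28 (negative without Gm1142KO-labelled replicate 2 or DKO replicate 3) and -0.088 without replicate 2 of both; Krt8 was -0.59, and -0.999 to 0.084 (0.084 without Gm1142KO-labelled replicate 1). Of the named list genes, in the DKO against WT, Krt10 was -0.25 to 0.070 with 1 library left out (positive without DKO replicate 1). The summed level of Cdh16, Emx2, Pax2 and Pax8 in the Gm1142KO-labelled libraries was 38.0 CPM on unscaled totals against 41.2.

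Replicate numbers are shared, but the labels state no pairing, and same-numbered libraries correlated at -0.267 to 0.101 in their deviations (1 of 9 pairs over 0.1, own number highest in 9 of 18). With the number as a replicate block, members called were 1, 0 and 2 and genes called 2921, 16 and 2965 in the 3 comparisons. Etv4 in the Gm1142KO-labelled libraries against WT lost its call with the block (adjusted p = 0.0503).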
